A study of Drosophila melanogaster with 9 samples.

Results

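Carbonic anhydrases are zinc enzymes that turn carbon dioxide and water into bicarbonate and a proton, and back again. They set pH and the supply of bicarbonate in many tissues, and the bicarbonate and protons they handle are moved across membranes by anion exchangers, sodium/proton exchangers and the proton-pumping vacuolar ATPase. In mammals, bicarbonate also activates the soluble adenylyl cyclase of sperm. Most animal carbonic anhydrases belong to the alpha class, and in *Drosophila* the alpha-class genes are named *CAH* with a number. The expression of 10 of these genes (*CAH1*, *CAH2*, *CAH3*, *CAH4*, *CAH5*, *CAH7*, *CAH8*, *CAH9*, *CAH13* and *CAH14*) is described here in testes with and without a knockdown of *tbrd-2*, which encodes a testis-specific bromodomain protein. They were found by gene symbol among 11982 named genes and hold 11 of the 18952 probe sets of the array, since *CAH4* has 2 probe sets and each of the other genes has 1. The family was chosen from the fall of *CAH5* (also called *CG18673*) in knockdown testes, and the other 9 genes entered by name alone. The decrease of *CAH5* against each control is therefore given as a description, with no test.

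Whole testes of 3 genotypes were measured on 9 Affymetrix Drosophila Genome 2.0 arrays, 3 for each genotype and each from a separate pool of 30 males according to the labels (the methods give 25). *bam*≫*tbrd-2*RNAi males had the driver *bam*-Gal4 in 2 copies, one on X and one on chromosome III, and the hairpin *tbrd-2*RNAi in 1 copy, also on chromosome III. The *bam*-Gal4 control had 2 copies of the driver and no hairpin, the undriven *tbrd-2*RNAi control 1 copy of the hairpin and no driver. Both controls, but not the knockdown males, also carried the dominant marker *Sb*. Each comparison with the knockdown therefore also differs in this marker, and the design cannot tell its part from that of the knockdown. The males were 0 to 2 days old and came from cultures at 30°C. The driver acts in germ cells under the *bam* promoter, and 1 hairpin line was used. The values are log2 values from RMA, which normalizes the arrays to a common distribution, so that they compare arrays for 1 probe set but do not rank different probe sets against each other. As whole testes were measured, fewer cells of a type and less RNA per cell cannot be told apart.

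The targeted gene *tbrd-2* stood at 8.06, 7.82 and 8.05 on the knockdown arrays, at 10.52, 10.52 and 10.73 with the driver alone, and at 10.19, 10.39 and 10.36 with the hairpin alone. All knockdown values were below all control values. The mean of 8 germline genes, among them the testis tubulin gene *betaTub85D* and the sperm tail gene *dj*, lay between 9.41 and 9.61 on all 9 arrays. Single genes of this list moved in either direction. *betaTub85D* was 13.50 to 13.55 in knockdown and 13.56 to 13.73 in control testes. The mean of *dj* was 11.56 in the knockdown, 11.29 with the driver alone and 11.36 with the hairpin alone. The mean of 12 seminal fluid genes of the accessory gland ran from 7.91 to 11.85, and that of 18 gut enzyme genes was 7.03 on knockdown array 3 and 7.21 on undriven array 3 but 5.17 to 5.62 elsewhere. For muscle sheath, cyst cells and hub, Malpighian tubule and fat body the knockdown and control ranges of the list means overlapped as well. This need not hold for single genes. The muscle gene *Act87E* was 11.34 to 11.38 in knockdown and 11.52 to 11.80 in control testes, while *Mlc1*, *Mlc2*, *up* and *Tm2* overlapped. The part of these tissues in the results below was not tested.

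*CAH5* was the carbonic anhydrase gene with the largest difference between genotypes. Its log2 values were 7.31, 6.24 and 6.51 in knockdown testes, 9.09, 8.80 and 8.99 in *bam*-Gal4 testes, and 9.31, 9.32 and 9.41 in undriven testes. Every knockdown array lay below every control array, and the highest knockdown array was 1.49 below the lowest control array. The means were 6.69 ± 0.56, 8.96 ± 0.15 and 9.35 ± 0.05 (SD, n = 3), so that the transcript was 4.83-fold lower than with the driver alone and 6.32-fold lower than with the hairpin alone. The knockdown arrays held 20.7% and 15.8% of the control levels. Sorted from the most negative log2-fold change, the probe set took place 7 of 18952 in the comparison with *bam*-Gal4 and place 3 in that with the undriven control. The knockdown arrays differed from one another more than the control arrays did. Array 1 stood highest at 7.31 and array 2 lowest at 6.24. *tbrd-2* itself was 8.06, 7.82 and 8.05 on arrays 1 to 3, so that array 2 was lowest for both genes, while arrays 1 and 3 were nearly equal in *tbrd-2*. Leaving out each array in turn gave log2-fold changes of *CAH5* from −2.59 to −2.05 for *bam*-Gal4 as the control and from −2.97 to −2.44 for the undriven control.

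**Figure D1:**
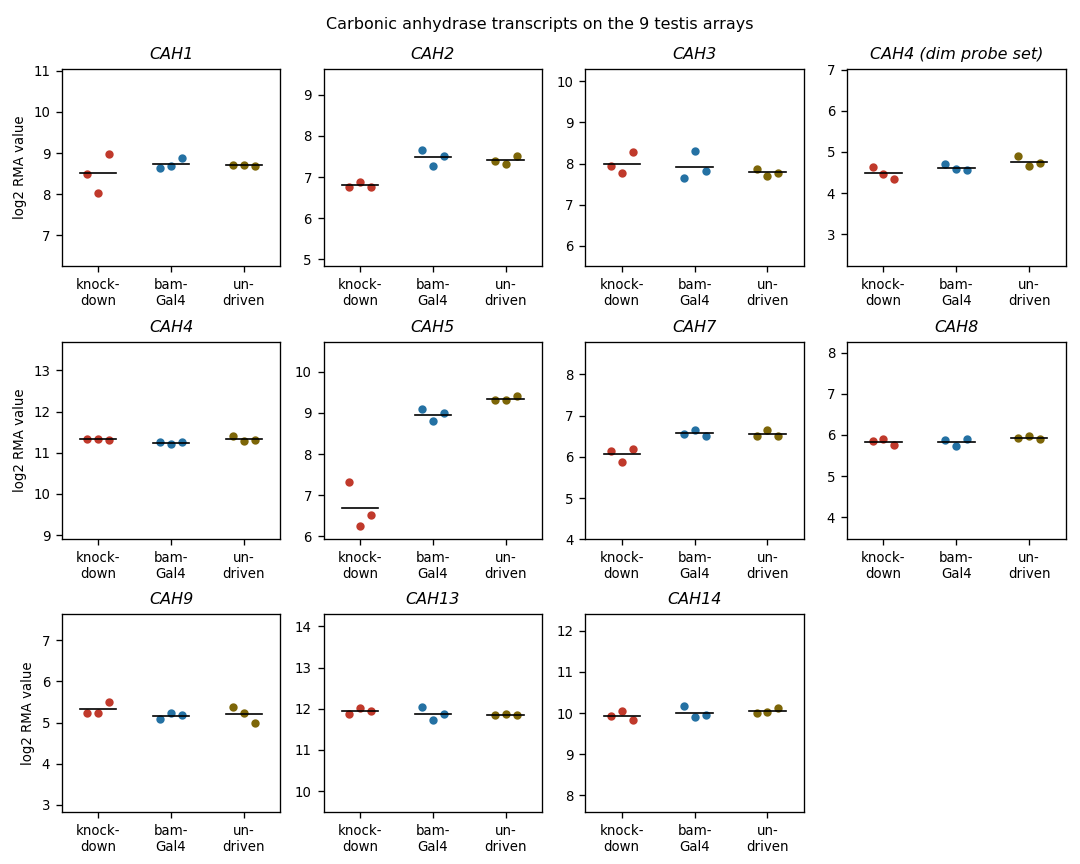
Log2 RMA values of the 11 carbonic anhydrase probe sets on each array (points) with the genotype mean (line, n = 3), each panel spanning the same number of log2 units around the gene's own mean. *CAH5* falls from means of 8.96 and 9.35 in the controls to 6.69 in the knockdown, while the other panels change by less than 1.

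Between the controls, a contrast that was not used to choose the family, *CAH5* did not pass the test. The *bam*-Gal4 mean was 0.39 below the undriven mean (standard error 0.23, 95% interval −0.90 to 0.12, limma, adjusted p = 0.601), although the values of the controls did not overlap. This standard error is drawn from all 9 arrays, and the SD of *CAH5* was 0.556 in the knockdown against 0.147 and 0.055 in the controls. A limma fit of the 6 control arrays gave the same difference with adjusted p = 0.115. The *bam*-Gal4 values also lay below all undriven values for *CAH8* and a probe set of *CAH4*. The share of all probe sets with such a separation was not computed. None of the 11 probe sets was called between the controls by limma, where a call needs a log2-fold change of at least 1 and a Benjamini-Hochberg adjusted p under 0.05 over all probe sets (0.38% of all probe sets were called). In the fit of all 9 arrays, 0 of the 11 probe sets had an unadjusted p under 0.05, where 6.42% of all probe sets were lower and 4.75% higher in *bam*-Gal4 testes. By the adjusted p alone 0 passed in this fit, against 2.08% of all probe sets. The log2-fold changes between the controls of the 10 other probe sets ranged from −0.15 to 0.14, with 95% intervals from −0.42 to 0.52.

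Of the 9 relatives of *CAH5*, *CAH2* and *CAH7* fell in knockdown testes, by less than 2-fold. *CAH2* stood at 6.76, 6.89 and 6.75 in the knockdown, at 7.67, 7.27 and 7.52 in *bam*-Gal4 testes and at 7.39, 7.32 and 7.51 in undriven testes. The knockdown values lay close together, and the highest of them was 0.38 below the lowest control. The log2-fold change of *CAH2* was −0.69 against *bam*-Gal4 (95% interval −0.92 to −0.45, limma, adjusted p = 0.00177) and −0.61 against the undriven control (95% interval −0.84 to −0.37, adjusted p = 0.00340). These are levels of 62.1% and 65.7% of the controls, where *CAH5* kept 20.7% and 15.8%.

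*CAH7* gave 6.14, 5.88 and 6.20 in knockdown testes, 6.56, 6.65 and 6.50 in *bam*-Gal4 testes and 6.50, 6.66 and 6.50 in undriven testes. Again no knockdown array reached the lowest control array, with a gap of 0.30. The log2-fold change of *CAH7* was −0.50 against *bam*-Gal4 (95% interval −0.71 to −0.29, limma, adjusted p = 0.00573) and −0.48 against the undriven control (95% interval −0.69 to −0.27, adjusted p = 0.00685). The values of the controls overlapped for both genes, and the controls differed by 0.08 for *CAH2* and by 0.02 for *CAH7*. Without the 3 arrays with the most accessory gland or gut transcripts (knockdown array 3, *bam*-Gal4 array 2 and undriven array 3, a choice made once the data had been seen), the differences in log2 value were −0.77 and −0.53 for *CAH2* and −0.52 and −0.57 for *CAH7*, with adjusted p of at most 0.0347 from limma.

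*CAH2* and *CAH7* were 2 of the 10 probe sets of the relatives, and both passed the adjusted p against each control. Over the whole array, 8.07% of the probe sets were lower by that measure against *bam*-Gal4, 9.1% against the undriven control and 5.88% against both. These 2 of the 10 also had all knockdown arrays below all control arrays, as 11.5% of all probe sets did. *CAH5* did so too, but it was chosen for its fall and is not counted here. Of the 11 probe sets of the family, 0 had all knockdown arrays above all control arrays, as 12.2% of all probe sets did. The family is too small for these shares to be read as a difference from the other genes. Called lower with the 2-fold limit was 1 of 11 probe sets against each control, that of *CAH5*, which chose the family. Of all 18952 probe sets, 94 were called lower in the comparison with *bam*-Gal4 and 119 in that with the undriven control. In either direction, 1.28% and 1.26% were called. The knockdown arrays are shared by these comparisons, so they are not independent of each other.

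**Figure D2:**
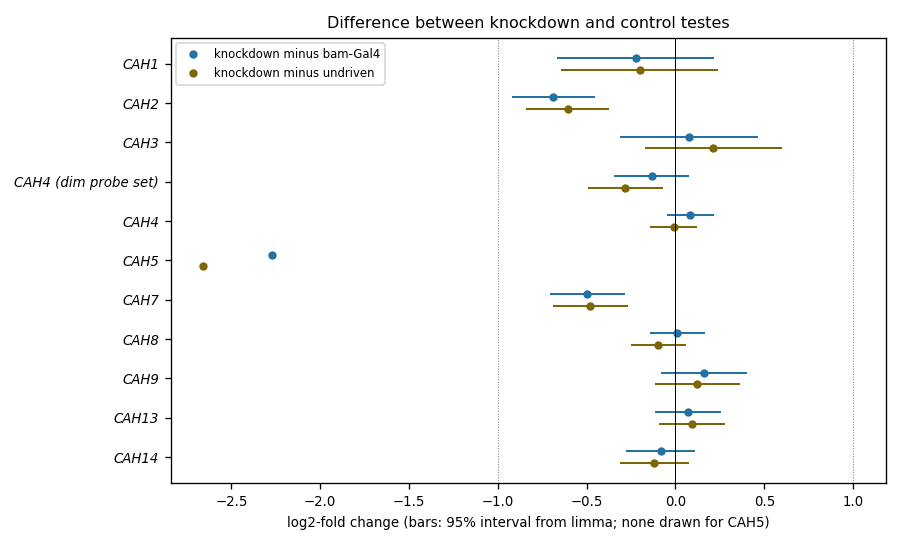
Log2-fold change of each carbonic anhydrase probe set between knockdown and each control (points; bars, 95% interval from limma, none drawn for *CAH5*; n = 3 arrays per genotype; dotted lines, the limit of 1). *CAH5* lies at −2.27 and −2.66, *CAH2* and *CAH7* between −0.69 and −0.48 with intervals below 0, and the intervals of the relatives lie between the dotted lines.

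The remaining relatives did not pass the adjusted p against either control. *CAH4* has a bright and a dim probe set. The bright one stood at 11.34, 11.33 and 11.30 in knockdown testes, at 11.27, 11.20 and 11.25 in *bam*-Gal4 testes and at 11.41, 11.29 and 11.30 in undriven testes. The groups lay within 0.21 of each other. Its log2-fold changes were 0.08 (95% interval −0.05 to 0.22, limma, adjusted p = 0.379) and −0.01 (95% interval −0.14 to 0.12, adjusted p = 0.926). The dim probe set of *CAH4* had a mean log2 value of 4.62 over the 9 arrays, below the array medians of 5.86 to 5.96, and differed by −0.13 from *bam*-Gal4 (limma, adjusted p = 0.379) and by −0.28 from the undriven control (limma, adjusted p = 0.0655). It passed the adjusted p against the undriven control in 2 of 12 alternatives (0.0307 with the replicate number as a block and 0.0401 without knockdown array 1), whereas the bright probe set did not.

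For *CAH13* and *CAH14* the genotypes differed by at most 0.12. *CAH13* ranged from 11.88 to 12.01 in knockdown testes, from 11.72 to 12.04 in *bam*-Gal4 testes and from 11.84 to 11.87 in undriven testes, and *CAH14* from 9.83 to 10.04, from 9.91 to 10.17 and from 10.01 to 10.12. Their log2-fold changes were 0.07 and 0.09 for *CAH13* (95% intervals −0.12 to 0.26 and −0.09 to 0.28) and −0.08 and −0.12 for *CAH14* (95% intervals −0.28 to 0.11 and −0.31 to 0.07). These intervals leave room for changes of about 0.3 on the log2 scale, far from the change of *CAH5*.

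*CAH8* and *CAH9* had mean log2 values of 5.87 and 5.23, at or below the array medians. The deposited values hold no detection calls, so for such dim probe sets it was not tested whether a transcript was measured at all. *CAH8* had log2-fold changes of 0.01 and −0.10 (95% intervals −0.15 to 0.17 and −0.25 to 0.06), and *CAH9* of 0.16 and 0.12 (95% intervals −0.08 to 0.40 and −0.12 to 0.36).

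*CAH1* was the member with the widest scatter within the knockdown after *CAH5*. It stood at 8.50, 8.03 and 8.99 in knockdown testes, at 8.63, 8.68 and 8.88 in *bam*-Gal4 testes and at 8.72, 8.72 and 8.68 in undriven testes. The knockdown values lay on either side of the controls, with an SD of 0.48 against 0.13 and 0.02. The log2-fold changes of *CAH1* were −0.22 (95% interval −0.67 to 0.22, limma, adjusted p = 0.492) and −0.20 (95% interval −0.64 to 0.24, adjusted p = 0.524). Without knockdown array 2 they were 0.02 and 0.04, and without knockdown array 3 they were −0.465 and −0.442 (limma, adjusted p = 0.0541 and 0.0659).

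*CAH3* varied between arrays of the same genotype, in the same order as the transcripts of the accessory gland. Its values were 7.94, 7.78 and 8.28 in knockdown testes, 7.64, 8.30 and 7.83 in *bam*-Gal4 testes and 7.87, 7.71 and 7.78 in undriven testes. The mean of the 12 seminal fluid genes on the same arrays was 10.75, 9.99 and 11.67, then 7.91, 11.85 and 10.002, and then 10.37, 9.14 and 9.61. In all 3 genotypes the arrays fell into the same order by *CAH3* and by these genes, which held for 1 of the 11 probe sets. Each order is of 3 arrays only, and the share of all probe sets with the same orders was not computed. The array highest in seminal fluid genes was also the highest in each genotype for *CAH9*, a dim probe set with values between 5.0 and 5.49. Between genotypes, the log2-fold changes of *CAH3* were 0.08 (95% interval −0.31 to 0.46, limma, adjusted p = 0.806) and 0.21 (95% interval −0.17 to 0.60, adjusted p = 0.433). *CAH5*, *CAH2*, *CAH8*, *CAH13* and *CAH14* had the same highest array as the seminal fluid genes in 0 of 3 genotypes.

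On chromosome arm 3R, *CAH5* lies directly beside *CAH16*, which in turn lies beside *CAH6*, in the gene order of the RefSeq annotation of assembly Release 6 plus ISO1 MT. These neighbours are not among the 10 genes and are named after their values were seen. *CAH16* stood at 6.0, 5.07 and 6.82 in knockdown testes, at 4.6, 6.71 and 5.18 in *bam*-Gal4 testes and at 5.66, 4.79 and 4.88 in undriven testes. Unlike *CAH5*, its highest value was on a knockdown array, and the genotypes overlapped. Its log2-fold changes of 0.47 and 0.85 had wide 95% intervals, from −0.80 to 1.74 and from −0.42 to 2.12 (limma, adjusted p = 0.625 and 0.335). Like *CAH3*, *CAH16* had its arrays in the order of the seminal fluid genes in all 3 genotypes. *CAH6* was dim, with values from 3.96 to 4.30 in knockdown and from 3.76 to 3.95 in control testes (log2-fold changes 0.29 and 0.30, limma, adjusted p = 0.0626 and 0.0596). *ppk24*, a gene of an ion channel family on the other side of *CAH5*, was between 3.57 and 4.01 on all arrays.

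**Figure D3:**
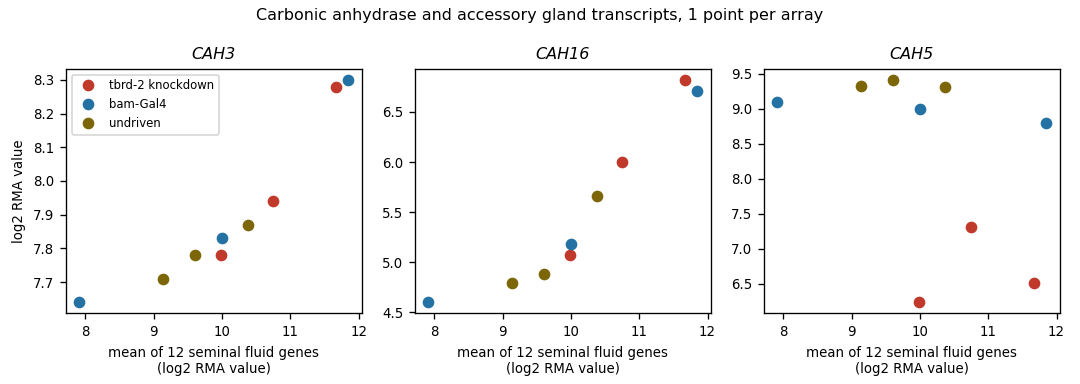
Log2 RMA values of *CAH3*, *CAH16* and *CAH5* (y axes, different ranges) against the mean log2 value of 12 seminal fluid genes (x axis) on the 9 arrays, 1 point per array, coloured by genotype. *CAH3* and *CAH16* are highest on the arrays with the most seminal fluid transcripts (11.67 and 11.85), whereas *CAH5* separates by genotype.

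Of the other carbonic anhydrase genes, 6 were measured with 8 probe sets and 0 were called against either control. At an unadjusted p under 0.05, 1 of the 8, that of *CAH6*, was higher against each control, and 0 were lower. At that threshold 16.3% of all probe sets were higher and 14.6% lower in the comparison with *bam*-Gal4, and 15.7% were higher and 16.6% lower in that with the undriven control, so 1 of 8 is near the background. The medians of the 8 log2-fold changes were 0.03 and −0.07, beside −0.02 and −0.03 for all probe sets. The brightest of them was *CAH15*, with a mean of 10.57 in knockdown testes and log2-fold changes of 0.20 and 0.05 (95% intervals −0.02 to 0.42 and −0.17 to 0.27). The other genes of this list described here were picked after their values were seen. *CAHbeta*, the gene of the beta-class enzyme of mitochondria, had log2-fold changes of 0.03 and −0.09. *CARPA* and *CARPB*, named as carbonic anhydrase-related proteins, had values of at most 4.16 on all arrays.

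The named genes whose profile over the 9 arrays was nearest to that of *CAH5* were *CG17917*, *CG13946*, *CG42827*, *CG32457* and *CG13947*. Each profile was centred on its own mean, and likeness was measured as the root mean square difference from *CAH5*, which was 0.15, 0.23, 0.23, 0.27 and 0.34 log2 units for these genes. For the relatives it ranged from 0.93 for *CAH2* and 0.98 for *CAH7* to 1.30 for *CAH3*. The profiles were not scaled, so this measure counts the size of a change as well as its shape. The values of the relatives thus also reflect that their changes were smaller than that of *CAH5*. *CG17917*, the nearest, gave 7.81, 6.82 and 6.89 in knockdown testes, 9.55, 9.28 and 9.59 in *bam*-Gal4 testes and 9.64, 9.92 and 9.50 in undriven testes. Like *CAH5*, all 5 genes were highest on array 1 among the knockdown arrays, which their choice by likeness over these same arrays favours. *CG32457* was 9.98 on array 1 and 8.97 and 9.19 on arrays 2 and 3, and *CG13947*, whose probe set carries the suffix for probes that match other sequences, was 9.08, 8.21 and 8.19. Since these genes were picked by their values, their decreases are not tested here.

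**Figure D4:**
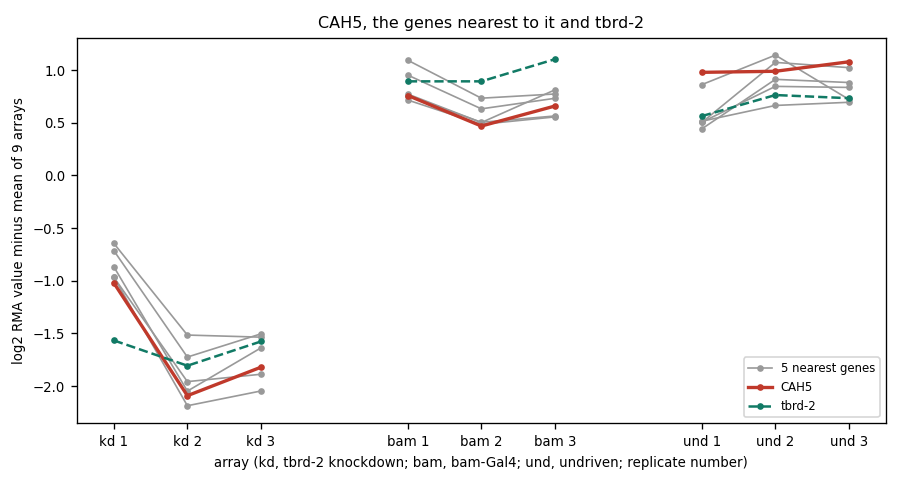
Log2 RMA value minus the gene's mean over the 9 arrays for *CAH5* (red), the 5 named genes nearest to it (grey) and the targeted gene *tbrd-2* (green, dashed). *CAH5* and the 5 genes are highest on array 1 among the knockdown arrays, where *CAH5* was 7.31, and *tbrd-2* was 8.06, 7.82 and 8.05 on these arrays. The 5 genes were chosen by their likeness to *CAH5* on the same 9 arrays.

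Of the genes that move bicarbonate and protons, a minority passed the adjusted p, some lower and some higher, and each by less than 2-fold. A list of 39 such genes (anion exchangers, sodium/proton exchangers and subunits of the vacuolar ATPase with their testis paralogs) was measured for 37 genes with 40 probe sets, of which limma called 0 in each of the 3 comparisons. At an unadjusted p under 0.05, 9 were lower and 8 higher against *bam*-Gal4, 11 lower and 12 higher against the undriven control, and between the controls *bam*-Gal4 was lower for 3 and higher for 4. These 40 probe sets are to be read against the shares at the same threshold given above for the whole array. By the adjusted p alone, 6 were lower and 5 higher against *bam*-Gal4, and 8 lower and 6 higher against the undriven control. Over all probe sets 10.6% were higher against *bam*-Gal4, 9.96% against the undriven control and 7.19% against both, beside the shares of lower ones given above. Against both controls, 6 of the 40 were lower and 5 were higher. The medians of the list were 0.06 and 0.10.

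The members of this list named below other than *Vha68-3* and *Vha13* were picked after their values were seen. *Vha36-2*, which encodes a subunit of the part of the proton pump that splits ATP, was 9.93, 9.86 and 9.78 in knockdown testes and between 10.59 and 10.70 in all control testes. The knockdown thus held 58.0% of the *bam*-Gal4 level and 59.5% of the undriven level (log2-fold changes −0.79 and −0.75, limma, adjusted p = 6.73e-05 and 9.03e-05). *VhaPPA1-2*, a subunit of the membrane part, moved the other way, from 9.95 to 10.25 in the controls to 10.74 to 10.84 in the knockdown (log2-fold changes 0.61 and 0.66, limma, adjusted p = 0.00127 and 0.000831). Of the brightest members, *Vha68-3* differed by −0.26 and −0.30 (limma, adjusted p = 0.0240 and 0.0135) and *Vha13* by 0.16 and 0.13 (adjusted p = 0.0808 and 0.155).

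The anion exchanger genes *Ae2* and *Ndae1* passed the adjusted p against each control with each of their probe sets, in opposite directions. *Prestin*, of the same list, did not pass, with log2-fold changes of −0.17 and −0.12 (limma, adjusted p = 0.0550 and 0.156). *Ae2* rose, from values of 7.62 to 8.23 in the controls to 8.49, 8.60 and 8.70 in the knockdown for its brighter probe set (log2-fold changes 0.87 and 0.50, limma, adjusted p = 0.000624 and 0.0111). For this probe set the *bam*-Gal4 values also lay below all undriven values (log2-fold change −0.37, limma, adjusted p = 0.172). The second probe set of *Ae2* differed by 0.77 and 0.60 (limma, adjusted p = 0.0165 and 0.0456). *Ndae1*, the gene of a sodium-driven anion exchanger, fell by 0.58 and 0.33 on the log2 scale with one probe set and by 0.50 and 0.56 with the other (limma, adjusted p of at most 0.0387). Of 5 adenylyl cyclase genes of the testis, limma called 0 against either control. Whether bicarbonate acts on the enzymes of these genes was not tested. *ACXA* differed by −0.39 and −0.48 (limma, adjusted p = 0.0842 and 0.0397). It was the 1 gene of the 5 with an unadjusted p under 0.05 in each comparison with the knockdown. Of all probe sets, 14.6% were lower at this threshold than with the driver alone, and 16.6% lower than with the hairpin alone. A list of 5 genes is too small for 1 of 5 to be read as a difference from these shares. *ACXC*, the next after *ACXA* by mean level, had −0.22 and −0.25 (limma, adjusted p = 0.314 and 0.236).

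**Figure D5:**
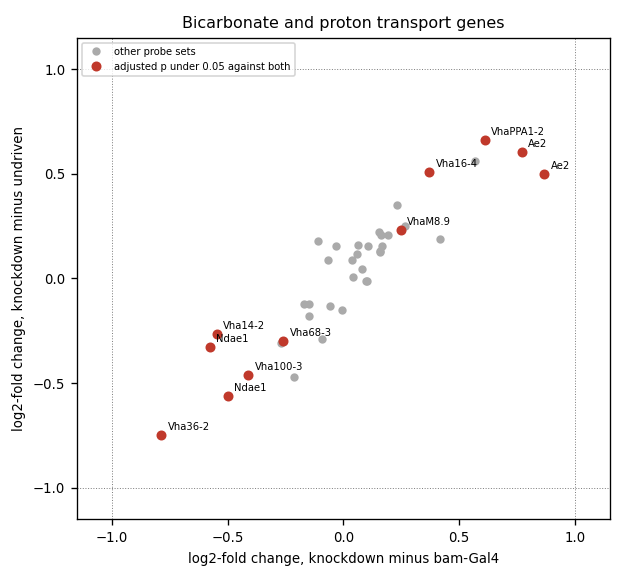
Log2-fold change from *bam*-Gal4 (x axis) and from the undriven control (y axis) for the 40 probe sets of bicarbonate and proton transport genes, with those past the adjusted p against both controls in red (11 probe sets, dotted lines at the limit of 1). All points lie within the limit, from −0.79 to 0.87, and the axes share the knockdown arrays.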

How the data were processed

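The authors deposited log2 values, 1 per probe set and array with 2 decimals, which they made from scanned arrays with the affy package and RMA (background correction, quantile normalization, probe summary). The sources used here give no versions. The methods say that RMA was run jointly with arrays of an earlier study for a comparison with that study, but leave unstated if the values used here are those or were made without the added arrays. Genotypes and replicate numbers came from the sample labels. With limma 3.58.1 in R 4.3.3, a mean per genotype was fitted to all 9 arrays (6 residual degrees of freedom, 9.23 after eBayes) without a covariate or filter. P-values were adjusted by Benjamini-Hochberg over all 18952 probe sets of a comparison, and a probe set was called below 0.05 when it also changed by 1 or more on the log2 scale. The fit was tested on simulated data. Symbols came from the platform's annotation (13647 probe sets with 1 symbol), brought up to date with RefSeq (Release 6 plus ISO1 MT). All probe sets of each gene are given.

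The genes, lists and rules were chosen with earlier results of these data known. Named in the text are all members, *tbrd-2*, the 5 named probe sets nearest to *CAH5*, and from each list up to 4 called members or otherwise the 2 brightest. Others are marked as chosen after their values were seen. Alternatives were a block for the replicate number, fits of 6 arrays, repeated quantile normalization, median centring, leaving out probe sets with a mean under 5 or 6, trended robust variances, no fold limit and leaving out each array. Sequences of the genes were not used here. The number of arrays limits the precision. Plots were drawn with matplotlib 3.10.9.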

Additional observations from a re-analysis of the deposited data

How the results depend on the processing

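*CAH5*, whose fall chose the family, was lower by more than 2-fold in each alternative fit of both comparisons with the knockdown. These fits reuse the same arrays and are no test of its decrease. *CAH2* and *CAH7* passed the adjusted p in all 14 alternatives of each comparison. The counts of called probe sets moved only when the fold limit was dropped, to 3 of the family against each control, and to 9 and 12 transport genes for *bam*-Gal4 and for the undriven control. Without that limit, 8.07% of all probe sets were lower and 10.6% higher against *bam*-Gal4, and 9.1% lower and 9.96% higher against the undriven control. These shares are of probe sets, whereas the transport counts are of genes. Leaving out each array in turn gave 1 called probe set of the family, that of *CAH5*, for each control and 0 between the controls.

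Changes of sign concerned small differences that did not pass the adjusted p. Against *bam*-Gal4, *CAH8* was −0.029 after repeated quantile normalization and −0.033 after median centring, and *CAH13* was −0.010 without the 3 arrays richest in gland or gut transcripts. Against the undriven control, the bright probe set of *CAH4* was 0.059 after repeated quantile normalization, and *CAH9* −0.060 without these 3 arrays. Between the controls, leaving these out gave −0.055 for *CAH3*, −0.050 for *CAH7* and 0.050 for *CAH14*. With 1 array left out, the ranges against *bam*-Gal4 were −0.465 to 0.015 for *CAH1*, −0.065 to 0.265 for *CAH3*, −0.043 to 0.048 for *CAH8* and −0.008 to 0.152 for *CAH13*, and against the undriven control −0.442 to 0.038 for *CAH1* and −0.032 to 0.028 for *CAH4*. Between the controls they were −0.052 to 0.073 for *CAH1*, −0.012 to 0.188 for *CAH2*, −0.052 to 0.278 for *CAH3*, −0.023 to 0.070 for *CAH7*, −0.135 to 0.050 for *CAH9*, −0.058 to 0.102 for *CAH13* and −0.115 to 0.015 for *CAH14*. The cause was not tested.

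The labels number the replicates 1 to 3 in each genotype, but nothing ties equal numbers to a shared batch, and the deviations of same-numbered arrays from their genotype means had correlations from −0.58 to 0.33 across probe sets. With the replicate number as a block, the called probe sets of the family were 1, 1 and 0 in the 3 comparisons, as without it. The called one was that of *CAH5*, which chose the family. *CAH4* (dim probe set against the undriven control, −0.28, adjusted p = 0.0307 from limma) was the 1 member that moved past the adjusted p.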
